A study of Mus musculus with 2 samples.

Results

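Mmp16, Rab6b and Serpinb2 are 3 of the 32285 genes counted by droplet-based scRNA-Seq in ILC2s of the lung, and they were chosen by their levels, which lay far apart between the WT library and the Pac1–/– library. Every level and ratio between genotypes given for them is therefore a description, with no test. ILC2s, the group 2 innate lymphoid cells, live in tissues such as the lung, carry no antigen receptor and secrete IL-5 and IL-13. The Pac1–/– mice (C57BL/6J background) carried a knockout of the phosphatase PAC1, whose gene is Dusp2, and WT mice were the controls. Cells were sorted from lung as live, lineage-negative cells carrying CD90.2, ST2 and Sca-1, and the cells of all mice of a genotype were pooled into 1 library, so differences between mice and differences between cells cannot be told apart within a library. Cells were kept if 500 or more genes were detected and mitochondrial UMIs made up no more than 10%, which gave 8394 from WT and 7087 from Pac1–/–.

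Each captured transcript carried a unique molecular identifier (UMI), and a level is given as UMIs of the gene per 1000000 UMIs of the cells it was summed over (CPM). With 1 library per genotype there was no replicate spread, and all 95% intervals below cover counting error only. The kept cells held 54579034 UMIs in WT (median 4186.5 per cell) and 58338886 in Pac1–/– (5577 per cell). The targeted gene Dusp2 gave 1419 UMIs in 757 WT cells and 5 UMIs in 5 Pac1–/– cells. The ILC2 markers Gata3 and Il1rl1 (which encodes ST2) were found in 88.8% and 91.9% of WT cells and in 90.7% and 92.9% of Pac1–/– cells. Of the cell barcodes, 29 occurred in both libraries, and the kept ones among them held 4 Rab6b UMIs in WT, 7 Mmp16 UMIs in Pac1–/– and none of Serpinb2.

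The 3 genes belong to unrelated families. Mmp16 encodes a membrane-type matrix metalloproteinase, an enzyme held at the cell surface that cuts matrix proteins and helps to activate secreted metalloproteinases. Rab6b encodes an isoform of the small GTPase Rab6, which steers vesicles between the Golgi, the endoplasmic reticulum and the cell surface, and it is best known from neurons, whereas the isoform encoded by Rab6a is found in most cells. Serpinb2 encodes a plasminogen activator inhibitor that stays largely inside the cell and is best known as a gene strongly induced in macrophages by inflammatory stimuli. In the GRCm38 annotation all lie on the plus strand and on separate chromosomes, with Mmp16 (ENSMUSG00000028226) at chr4:17852893-18119145, Rab6b (ENSMUSG00000032549) at chr9:103111787-103185276 and Serpinb2 (ENSMUSG00000062345) at chr1:107511423-107535478. Gene models overlapped each of them, Gm11860 on the opposite strand of Mmp16, Gm37166 on the strand of Rab6b and Serpinb10 on the strand of Serpinb2. These 3 gene models were not analysed here, and how reads in the overlaps were assigned is not given in the sources used here.

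Promoter windows from RefSeq (GRCm38.p6; 250 bases before to 50 bases after the start) matched 2 of the 3 genes and are shown because they differ widely in base composition. The Rab6b window lies inside the gene as given above, so the RefSeq start it was cut from lies downstream of the printed gene start. Capitals mark CCGCCC, the reverse-strand reading of the GC box GGGCGG, in the Rab6b window (chr9:103111824-103112123, plus strand), and the AP-1 motif TGANTCA followed by the TATA box TATAAA in the Serpinb2 window (chr1:107511173-107511472, plus strand).

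Rab6b: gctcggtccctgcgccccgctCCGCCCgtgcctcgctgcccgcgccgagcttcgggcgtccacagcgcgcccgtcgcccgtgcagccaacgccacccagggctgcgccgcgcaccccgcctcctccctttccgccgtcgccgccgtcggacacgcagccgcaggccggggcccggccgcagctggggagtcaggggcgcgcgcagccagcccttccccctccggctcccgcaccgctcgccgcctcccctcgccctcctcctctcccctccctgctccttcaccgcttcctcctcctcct

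Serpinb2: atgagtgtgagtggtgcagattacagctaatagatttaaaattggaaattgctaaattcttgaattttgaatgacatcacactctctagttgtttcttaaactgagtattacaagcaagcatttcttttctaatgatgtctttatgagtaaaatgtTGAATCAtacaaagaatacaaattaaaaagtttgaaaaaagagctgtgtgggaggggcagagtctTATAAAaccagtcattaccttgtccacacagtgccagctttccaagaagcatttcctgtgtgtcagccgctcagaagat

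The Rab6b window held 78.7% G and C and 42 CpG dinucleotides, and 98.4% of the 32544 promoter windows in the table had a lower G and C content. The Serpinb2 window shown held 35.3% G and C and 1 CpG, and 3.97% of windows were lower. A second Serpinb2 window in the table (chr1:107511260-107511559), which overlaps the first and holds the same AP-1 motif and TATA box, had 39.3% G and C and 4 CpG, and 8.83% of windows were lower. Searched on both strands, the AP-1 motif stood at position 157 of the Serpinb2 window shown and the TATA box at position 222, counted from 1 at its 5′ end, and these letters occur in 7.79% and 13.6% of all windows. The GC box stood at position 22 of the Rab6b window and occurs in 35.9% of all windows. Neither window held the cAMP response element TGACGTCA (1.80% of all windows) or its core TGACG (20.9%). These matches are letters in a window and were not tested as binding sites.

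Mmp16 was found almost only in the Pac1–/– library. It gave 59 UMIs in 51 WT cells, a level of 1.08 CPM (0.823 to 1.39), and 3742 UMIs in 1709 Pac1–/– cells, a level of 64.1 CPM (62.1 to 66.2). That is a log2 ratio of 5.70 (5.33 to 6.1), given, as all ratios between libraries below, relative to the median gene, which itself lay 0.19 higher in Pac1–/– on the log2 scale over the 12427 genes with at least 50 UMIs. Mmp16 had the 6th largest ratio of these genes by size, and 2.07% of them lay above a relative log2 ratio of 1, a share given for scale only because this ratio chose the gene. No WT cell held more than 2 Mmp16 UMIs, whereas 500 Pac1–/– cells held 3 or more and the highest held 16.

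Serpinb2 was also higher in Pac1–/–, at a lower level. It gave 98 UMIs in 48 WT cells, 1.80 CPM (1.46 to 2.19), and 712 UMIs in 406 Pac1–/– cells, 12.2 CPM (11.3 to 13.1), a relative log2 ratio of 2.58 (2.27 to 2.90) that ranked 63rd. Its UMIs were bunched in few cells in both libraries. The highest WT cell held 11 UMIs and the highest Pac1–/– cell 42.

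Rab6b went the other way. It gave 1089 UMIs in 933 WT cells, 19.95 CPM (18.8 to 21.2), and 96 UMIs in 88 Pac1–/– cells, 1.65 CPM (1.33 to 2.01). Its relative log2 ratio was −3.79 (−4.10 to −3.49), the 18th largest by size, and 5.08% of the genes lay below −1. No cell of either library held more than 4 Rab6b UMIs. The paralog Rab6a, which shares much of its coding sequence with Rab6b, was at 54.3 CPM in WT and 54.5 CPM in Pac1–/–, a relative log2 ratio of −0.18.

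None of the 3 genes was a switch in the strict sense of being found in 1 library and missing from the other, since each had at least 59 UMIs where it was lower. With a limit of at least 50 UMIs in 1 library and at most 3 in the other, 1 gene was found in WT (Eps8l1) and 4 in Pac1–/– (Zfp990, Gm13166, Nefl and Cntnap2), 0.00805% and 0.0322% of the genes compared. These 5 genes were named after their values were seen.

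**Figure D1:**
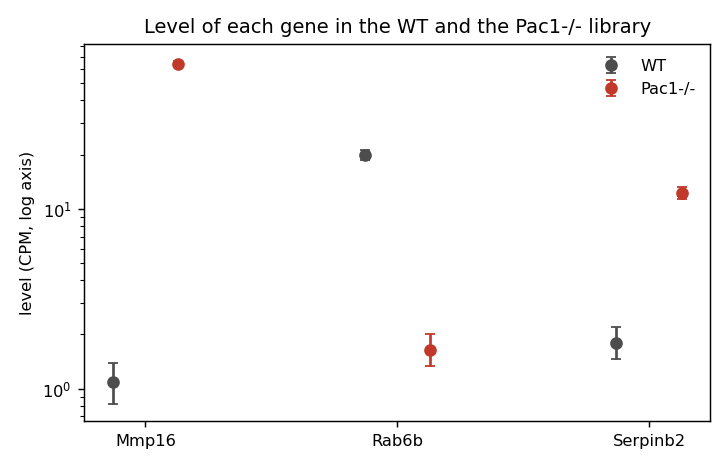
Level of Mmp16, Rab6b and Serpinb2 in CPM (log axis) in the WT library (grey) and the Pac1–/– library (red), with points for the library value and bars for the exact Poisson 95% interval. Mmp16 and Serpinb2 are higher in Pac1–/– (64.1 against 1.08 and 12.2 against 1.80 CPM) and Rab6b is higher in WT (19.95 against 1.65 CPM).

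**Figure D2:**
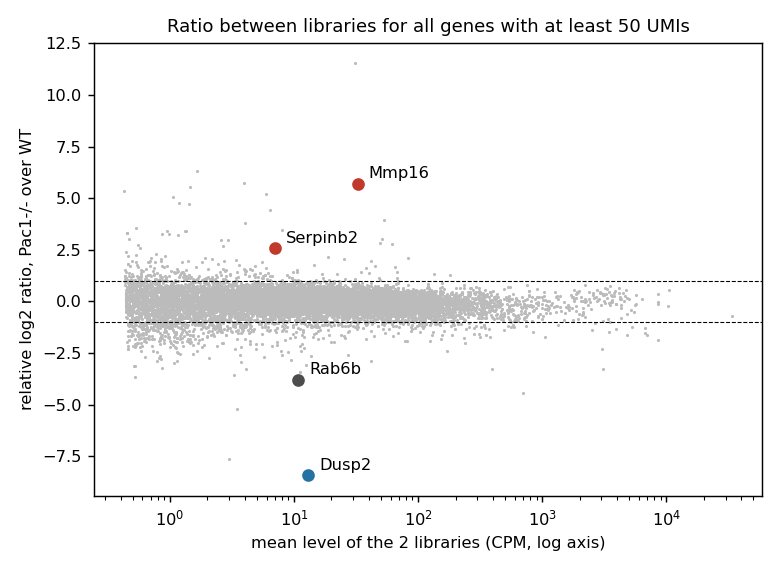
Relative log2 ratio of Pac1–/– over WT against the mean level of both libraries in CPM (log axis) for the 12427 genes with at least 50 UMIs, one point per gene, with dashed lines at 1 and −1. Mmp16 and Serpinb2 lie above the upper line, Rab6b lies below the lower line, and Dusp2 lies lowest of the 4 genes marked.

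The share of cells with a UMI depends on depth, so each cell was also thinned at random to 1500 UMIs, while shallower ones (760 in WT, 523 in Pac1–/–) were left out. At this equal depth Mmp16 was found in 0.118% (0.0539 to 0.224) of WT and 7.95% (7.31 to 8.63) of Pac1–/– cells. Rab6b was found in 3.01% (2.64 to 3.42) and 0.305% (0.186 to 0.470). Serpinb2 was found in 0.170% (0.0907 to 0.291) and 1.39% (1.12 to 1.70). Without thinning the shares were 0.608% and 24.1% for Mmp16, 11.1% and 1.24% for Rab6b and 0.572% and 5.73% for Serpinb2. All 3 genes kept the order of their levels.

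Free RNA can put UMIs into droplets of cells that do not express a gene, and the B cell-like clusters were looked at as a reference, with 25 cells in WT (median depth 4635 UMIs) and 21 in Pac1–/– (median depth 4470 UMIs). Gata3 UMIs were present in 68.0% of these cells in WT and 38.1% in Pac1–/–, so the reference held ILC2 RNA. In the WT ones Gata3 was at 962 CPM, against 1206 CPM in the whole library, and the ILC2 marker set summed to 6522 CPM beside 2293 CPM for the B cell set. In the Pac1–/– ones the order was the other way, with 3150 CPM for the ILC2 set and 4786 CPM for the B cell set, and Gata3 was at 637 CPM and Il1rl1 at 246 CPM, against 1035 and 992 CPM in the whole library. Since both groups held ILC2 RNA at these levels, neither was read as a level for free RNA alone, and their shares are given as values. Mmp16 was found in 4 of the 21 Pac1–/– B cell-like cells (19.0%; 5.45 to 41.9), an interval that covers its share in the whole library. Serpinb2 was found in 0 of these 21, with an exact interval of 0 to 16.1%, and a limit set at 3 counts gives 14.3% (3 cells of 21). Rab6b was found in 1 of the 25 WT cells (4.0%; 0.101 to 20.4).

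Whether a gene was spread over all cells or held by a subset was read from the share of cells with a UMI beside the share that 1 level common to all cells would give at their depths. Rab6b in WT was found in 11.1% of cells (10.5 to 11.8) where a common level would give 11.5%, so the measured share was 96.5% (90.8 to 103) of the common-level share. From the shallowest to the deepest quintile of cells its share went from 4.59% (3.64 to 5.70) to 26.2%, beside 3.47% and 27.3% for a common level. The common-level share lay outside the measured interval in the shallowest quintile and, at 12.26% beside 9.22% to 12.24%, in the fourth. A continuous (gamma) spread of levels with a coefficient of variation of 0.699 was 10.7 log-likelihood units above a common level, and a split with the gene in 75.4% of cells was 7.7 units above it. Rab6b was thus not at exactly 1 level in these cells, although its total share lay near that of a common level.

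Mmp16 in Pac1–/– was found in 24.1% of cells (23.1 to 25.1) where a common level would give 35.6%, so the measured share was 67.7% (64.9 to 70.5) of the common-level share. The shortfall was present in every quintile, from 10.5% against 13.6% in the shallowest to 50.5% against 68.8% in the deepest. Rab6a, a gene of similar level in the same cells, was found in 29.7% where a common level would give 31.8%. Mmp16 was thus more bunched than Rab6a. Other genes of these cells also fell short of a common level. Actn2 was found in 7.79% against 10.6%, Il5 in 39.5% against 85.0% and Il13 in 21.4% against 58.9%. The Fano factor at equal depth, the variance of the UMIs per cell over their mean, was 1.35 for Mmp16, 1.08 for Rab6a and 1.57 for Gata3 in this library. For like bunching this factor is larger at a higher level. Gata3 was at 1035 CPM and Mmp16 at 64.1 CPM, so these values do not rank the bunching of Mmp16 against that of Gata3.

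Mmp16 was also set against a strict subset. The best-fitting split into cells without the gene and cells with 1 level placed it in 47.0% of Pac1–/– cells at 121 CPM, and a continuous spread of levels gave a coefficient of variation of 1.54. These were 634 and 900 log-likelihood units above a common level. In the 89 cells with at least 40000 UMIs, Mmp16 was found in 86.5% (77.6 to 92.8), where the split gives 46.8%, the continuous spread 59.5% and a common level 95.7%. In the 443 cells with 20000 to 40000 UMIs it was found in 62.5%, against 44.7%, 48.7% and 80.6%. The split gives cells without the gene no UMI at all, free RNA included, and cells this deep can include doublets. The part of free RNA and of doublets in these shares was not tested, so the excess over the split is not read as expression in more cells.

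Serpinb2 in Pac1–/– was also found in fewer cells than a common level would give. It was found in 5.73% of cells (5.20 to 6.30) where a common level would give 9.17%, a measured share of 62.5% (56.7 to 68.7). This interval overlaps that of Mmp16, but such a share also depends on the level of a gene, so like bunching cannot be read from it. Its Fano factor at equal depth was 1.70. The split fitted to it placed the gene in 16.3% of cells at 63.9 CPM. The continuous spread had a coefficient of variation of 3.21, beside 1.54 for Mmp16. These 2 fits to Serpinb2 were 337.1 and 612.9 log-likelihood units above a common level. In the 89 cells with at least 40000 UMIs it was found in 38.2% (28.1 to 49.1). There the split gives 15.6%, the continuous spread 17.3% and a common level 46.1%, so a shortfall against a common level was not detectable in these 89 cells. In the 443 cells with 20000 to 40000 UMIs it was found in 19.0% (15.4 to 22.9), against 13.1%, 12.8% and 27.4%, so the shortfall was present there. In WT the measured share of 0.572% stood beside 1.15% for a common level.

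**Figure D3:**
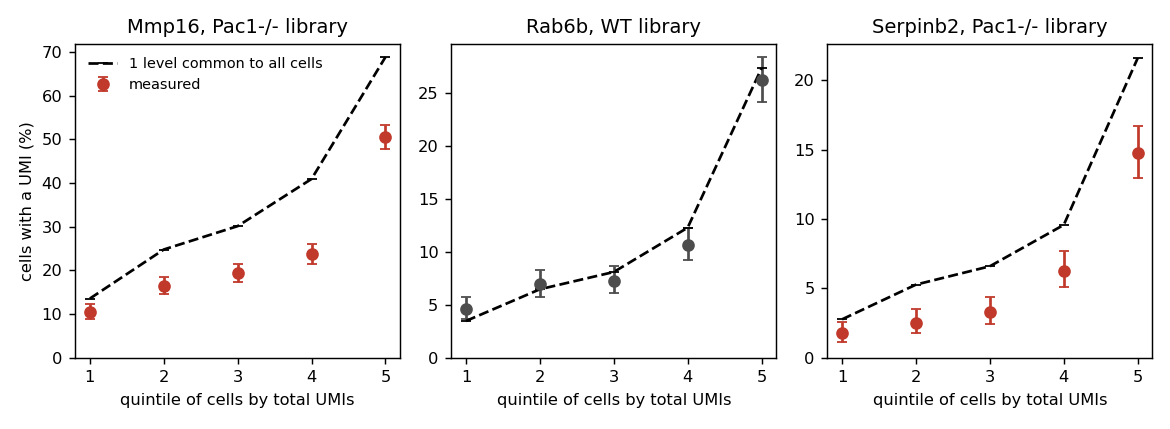
Share of cells with a UMI (%) in each quintile of the cells ordered by total UMIs, from shallowest (1) to deepest (5), for each gene in the library where it is higher. Points are measured shares with exact Clopper-Pearson 95% intervals and the dashed line is the share given by 1 level common to all cells. Rab6b lies above the line in the 2 shallowest quintiles and below it in the other 3, while Mmp16 and Serpinb2 lie below it in all 5 quintiles.

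The cells with the most Serpinb2 held UMIs of ILC2 markers. Such UMIs alone do not name a cell. Gata3 was also found in 68.0% of WT and 38.1% of Pac1–/– B cell-like cells. Among the 8 Pac1–/– cells with the most Serpinb2 UMIs (9 to 42), all 8 held Gata3 and Il1rl1 UMIs, 7 held Il5 UMIs, 3 held Il13 UMIs and none held a UMI of the 6 macrophage and monocyte markers (Lyz2, Cd68, Csf1r, Adgre1, C1qa and Itgam). The same held for the 5 WT cells with 6 to 11 Serpinb2 UMIs, all with Gata3 and Il1rl1 and none with a macrophage marker. One of the 8 Pac1–/– cells, with 14 Serpinb2 UMIs, stood apart, since it also held 171 Ccl3, 131 Ccl4, 93 Il1b and 45 Il6 UMIs beside 4 of Gata3 and 1 of Il1rl1. Over all Serpinb2-positive Pac1–/– cells the macrophage set summed to 2.99 CPM with 4 of its 6 markers at 0, against 7.75 CPM in the cells without Serpinb2, and over the 48 positive WT cells all 6 markers were at 0. The epithelial set (Epcam, Sftpc, Scgb1a1, Krt18 and Krt8) summed to 246 CPM in positive and 57.5 CPM in negative Pac1–/– cells, and its part in the Serpinb2 level was not tested.

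Leiden clusters made within each library without the 3 genes showed where each was found. Of the clusters with at least 50 cells, 7 were WT and 10 Pac1–/–. Mmp16 was found in all 10 Pac1–/– clusters, at 8.04 to 99.5 CPM. Among the larger ones it was lowest, at 26.5 CPM (22.5 to 31.1), in the ILC2-like cluster led by Scgb1a1, Il5, Il13 and Crem (882 cells, median 5786.5 UMIs), and reached 89.6 CPM (82.5 to 97.1) in an ILC2-like cluster of like depth led by Tcrg-C1, Scd2 and Txnip (1119 cells, median 5434 UMIs). The highest level, 99.5 CPM (84.0 to 117), was in an unnamed cluster of 261 cells led by Actn2, Mcpt8 and Lgals3, and the lowest, 8.04 CPM (2.61 to 18.8), in an unnamed cluster of 70 cells led by Ifi27l2a, Ms4a4b, Il17a and Gzma. In WT no cluster of at least 50 cells passed 1.81 CPM.

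The bunching of Mmp16 was also present inside clusters. With each Pac1–/– cluster given its own level, the measured share was 68.6% of the share that equal levels within clusters would give, hardly above the 67.7% without clusters. It was 62.8% to 73.7% in 8 of the 10 clusters. In the cluster with a median depth of 1002 UMIs it was 94.7%, and in the cluster of 70 cells it was 62.4% on 3 positive cells (4.29%; 0.893 to 12.02). In both of these the share given by equal levels, 8.77% and 6.86%, lay inside the measured interval, so no bunching was detectable there. For Rab6a the same shares were 90.1% to 97.9%. Zfp990, which had the profile over the 17 clusters most like that of Mmp16 (Pearson's r 0.97 across clusters of both libraries, which share a library and a depth), was less bunched, at 87.6% to 98.1%. Mmp16 and Zfp990 were not found in the same cells more than in others, since Mmp16 was at 63.8 CPM in cells with and 64.5 CPM in cells without a Zfp990 UMI (log2 ratio −0.02; −0.11 to 0.08). The next in likeness to Mmp16 were Gm13166, Eef1d, Xlr3b and Hypk, with r of 0.95 to 0.96.

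Rab6b was found in all 7 of these WT clusters. Its level ran from 15.7 CPM (12.9 to 19.0) in the ILC2-like cluster led by Il5, Crem and Calca to 24.8 CPM (19.7 to 30.7) in an unnamed cluster led by Tnfsf8, Lgals1 and S100a6, and these intervals do not overlap. With each WT cluster given its own level the measured share was 95.9% of that given by equal levels. In Pac1–/– it stayed at or below 2.05 CPM in all 10 clusters. Among the genes most like it over the 17 clusters were mt-Atp8, Gm10076, Rpgrip1 and 4930481A15Rik (r 0.98 for each), over points that share a library.

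Serpinb2 was uneven across clusters. In Pac1–/– it was at 27.6 CPM (23.4 to 32.2) in the cluster led by Scgb1a1, Il5 and Il13 and at 22.4 CPM (19.7 to 25.4) in the deep ILC2-like cluster led by Il5, Nrip3 and Nr4a3, against 8.79 CPM (7.51 to 10.2) and 8.17 CPM (6.14 to 10.7) in the other 2 ILC2-like clusters. An unnamed cluster of shallow droplets (542 cells, median 1002 UMIs) reached 29.3 CPM on 22 UMIs, of which 14 were those of the single cell with Ccl3 and Ccl4. The 261 cells of the Actn2-led cluster held 2 UMIs, 1.36 CPM (0.165 to 4.92). In WT, 93 of the 98 UMIs lay in 2 ILC2-like clusters, the deep one led by Ccl4, Nr4a3 and Cwc25 (72 UMIs, 2.99 CPM) and the one led by Il5 and Crem (21 UMIs, 3.12 CPM). With each Pac1–/– cluster given its own level, the measured share of Serpinb2 was 65.9% of that given by equal levels. It was 46.7% and 57.2% in the 2 Il5-led clusters, 42.2% in the cluster of shallow droplets and 80.3% in the largest cluster, with the share given by equal levels above the measured interval in each. The value for the shallow droplets rests on the single cell that held 14 of their 22 UMIs. In 4 other clusters it was 80.8% to 93.7%, with the share given by equal levels inside the interval. The Actn2-led cluster had 2 UMIs and the cluster of 70 cells 0, too few to read. The genes most like it over clusters were Gm21411, Gm15614, Whrn, Sap18 and Mcrip2 (r 0.82 to 0.85). These r also cover clusters of both libraries, so the difference between libraries that chose Serpinb2 is part of them. Gm21411 had 1 UMI in WT and 49 in Pac1–/–, levels far below the 10 CPM added in the likeness measure.

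**Figure D4:**
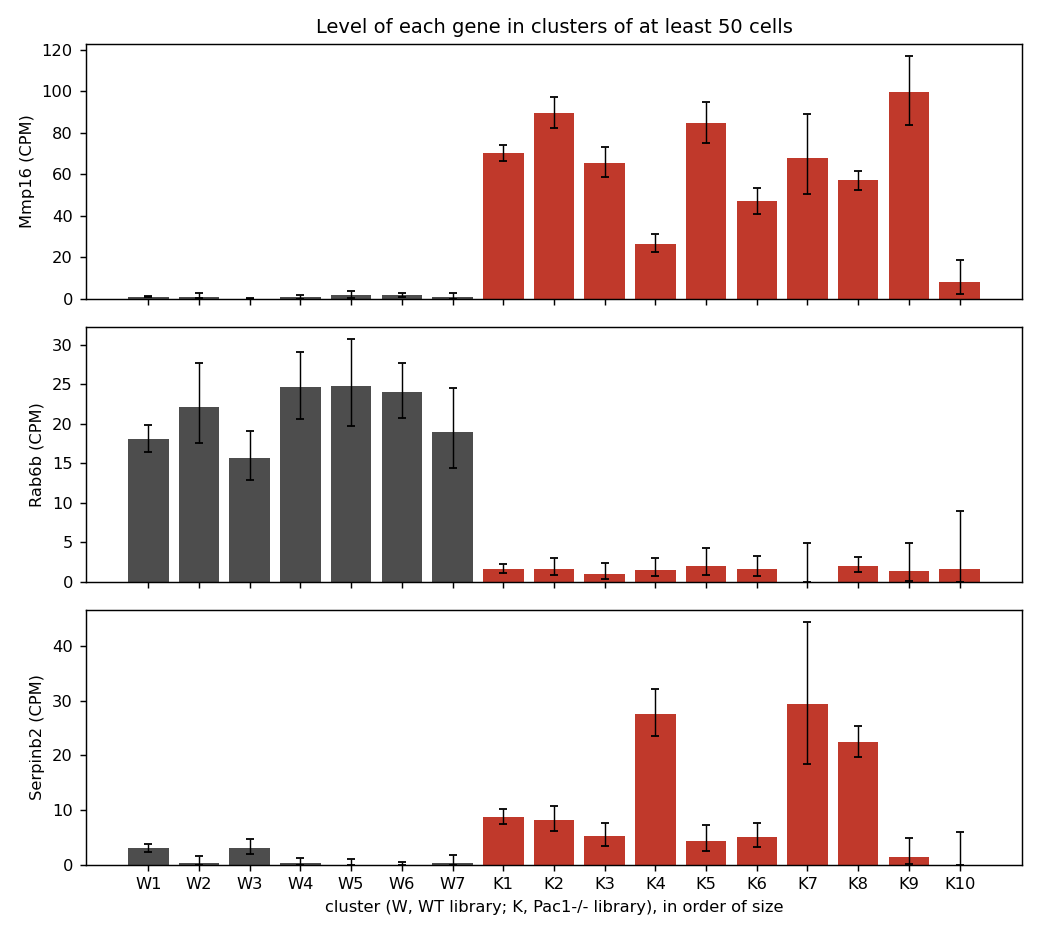
Level (CPM) of each gene in the 7 WT (W, grey) and 10 Pac1–/– (K, red) clusters of at least 50 cells, numbered by size within a library, with bars for the level and whiskers for the exact Poisson 95% interval. Mmp16 is present in all Pac1–/– clusters with a low in K4 (26.5 CPM) and K10 (8.04 CPM), Rab6b runs from 15.7 to 24.8 CPM over the WT clusters, and Serpinb2 is highest in K7, K4 and K8. In K7 most of the Serpinb2 UMIs were the 14 of a single cell.

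The levels were then split by Il5, Il13 and Actn2, by whether a cell held a UMI of that gene. Il5 and Il13 encode the type 2 effector cytokines, and Actn2 encodes an alpha-actinin, an actin cross-linking protein best known from muscle. Cells with a UMI were deeper than cells without (median 8063 against 4946 UMIs for Il5 in Pac1–/–), so levels per UMI are compared rather than shares. In Pac1–/–, 2800 cells held Il5, 1519 held Il13 and 552 held Actn2, and in WT 4460, 2420 and 907.

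Serpinb2 was higher in cells with Il5. In Pac1–/– it was at 16.2 CPM in cells with Il5 and 6.81 CPM in cells without, a log2 ratio of 1.25 (1.0 to 1.51), and with every cell thinned to equal depth the ratio was 1.12 (0.53 to 1.70). In WT the levels were 2.27 and 0.633 CPM (log2 ratio 1.84; 0.90 to 2.95), and at equal depth the ratio was 0.84 with an interval that spans 0 (−0.73 to 2.39). With Il13 the Pac1–/– levels were 14.5 and 10.9 CPM, a log2 ratio of 0.42 (0.20 to 0.64). Among cells with Il5, however, Serpinb2 was at 15.6 CPM (13.8 to 17.6) with and 16.8 CPM (14.9 to 18.9) without Il13, while it was at 10.2 CPM in cells with Il13 alone and 6.16 CPM in cells with neither. In WT it was at 2.23 CPM in cells with both and 2.32 CPM in cells with Il5 alone. The Il13 ratio was 1.21 (0.86 to 1.55) without cells over 2 times the median depth and 0.38 at equal depth, where its interval spans 0 (−0.57 to 1.22). With Actn2 the order was reversed, at 7.75 CPM in cells with and 12.95 CPM in cells without in Pac1–/– (log2 ratio −0.74; −1.13 to −0.37). This ratio was −0.44 without the 7 cells with 10 or more Serpinb2 UMIs and −1.50 (−2.83 to −0.44) without cells over 2 times the median depth. At equal depth the cells with Actn2 held 0 of 114 Serpinb2 UMIs, but they were only 122 of 6564 cells, and the upper limit of the log2 ratio was 0.80, so no order can be read there. The levels were 0.374 and 2.14 CPM in WT (−2.52; −4.42 to −1.11, on 4 UMIs in the cells with Actn2).

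Mmp16 leaned the other way. In Pac1–/– it was at 59.9 CPM in cells with Il5 and 69.9 CPM in cells without, a log2 ratio of −0.22 (−0.31 to −0.13), which was −0.50 without cells over 2 times the median depth and −0.34 (−0.66 to −0.04) at equal depth. With Il13 it was at 59.6 and 66.7 CPM (−0.16; −0.26 to −0.06), a ratio that was −0.36 without the deepest cells and −0.57 (−1.07 to −0.10) at equal depth. With Actn2 it was at 69.4 and 63.3 CPM (0.13; 0.00 to 0.26), with an interval that spans 0 at a mitochondrial limit of 5%, without the deepest cells (−0.12 to 0.43) and at equal depth (−0.79 to 0.91). Cells with neither cytokine held 71.0 CPM and cells with both 58.5 CPM, so the gene was at a high level in each of these classes and in WT stayed at 1.03 to 1.31 CPM in cells with and without each status gene. Relative to WT, the log2 ratio was 5.602 in cells with Il5 and 5.83 in cells without, with intervals that overlap.

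Rab6b in WT was at 18.4 CPM in cells with Il5 and 23.7 CPM in cells without (log2 ratio −0.37; −0.55 to −0.18). The ratio was −0.44 (−0.70 to −0.19) without cells over 2 times the median depth and −0.08 at equal depth, where its interval spans 0 (−0.49 to 0.32). Rab6b itself was at 27.8 CPM in the shallowest and 19.4 CPM in the deepest quintile of WT cells, and the part of depth in this difference was not tested. With Il13 the levels were 18.4 and 21.3 CPM (−0.21; −0.39 to −0.04), but the interval spans 0 without cells over 2 times the median depth (−0.25; −0.56 to 0.05) and at equal depth (−0.19; −0.79 to 0.37). With Actn2 they were 19.5 and 20.1 CPM (−0.04; −0.26 to 0.18). The relative log2 ratio of Pac1–/– over WT lay between −4.10 and −3.37 in cells with and without each of the 3 status genes.

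**Figure D5:**
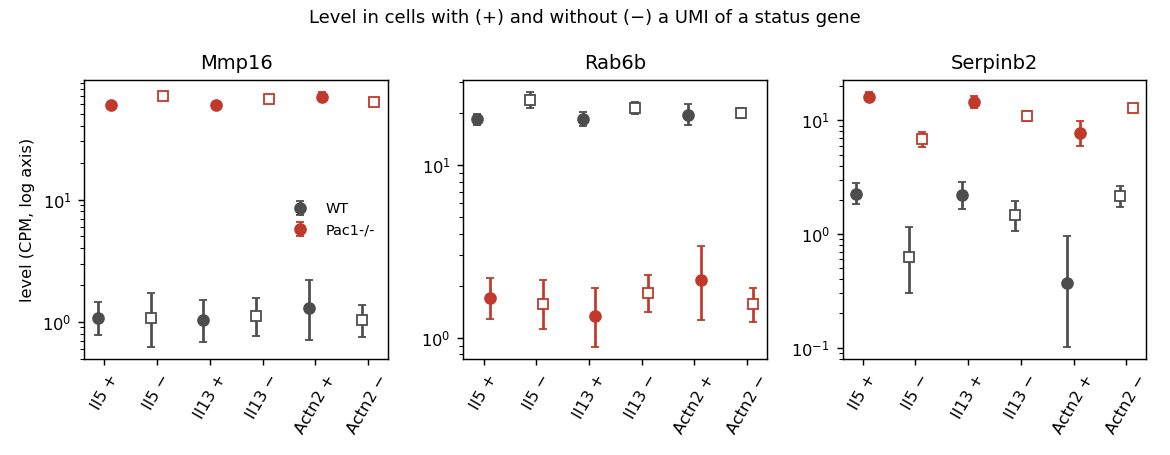
Level (CPM, log axis) of each gene in cells with (+, filled circles) and without (−, open squares) a UMI of Il5, Il13 or Actn2, in WT (grey) and Pac1–/– (red), with exact Poisson 95% intervals. The gap between libraries is present in every class, and Serpinb2 alone of the 3 shows a wide gap between cells with and without Il5 (16.2 against 6.81 CPM in Pac1–/–).

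The genes were next compared cell by cell with each other. In Pac1–/–, Serpinb2 was at 12.1 CPM in cells with and 12.2 CPM in cells without a Mmp16 UMI (log2 ratio −0.01; −0.24 to 0.21), and 145 cells held both. The 2 genes that were higher in Pac1–/– were thus not found in the same cells more often than their levels give, within this interval. In WT, Serpinb2 was at 0.925 CPM in cells with and 2.01 CPM in cells without Rab6b (−1.12; −2.23 to −0.17), on 10 UMIs in the first. In Pac1–/– the order was the opposite, at 19.4 CPM in cells with and 12.002 CPM in cells without Rab6b (0.69; 0.12 to 1.21), with 15 cells that held both. The difference between these 2 ratios was not tested.

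Genes of the same families were listed beside them. Of 13 other metalloproteinases, inhibitors and related proteases with at least 50 UMIs, 0 lay above a relative log2 ratio of 1 and 1 below −1 (2.07% and 5.08% of all genes did), with a median of −0.34 beside 0 for all genes. Mmp19, a secreted metalloproteinase, was at −1.05 on 34 and 20 UMIs, and Mmp25, another membrane-type enzyme, was at 20.4 CPM in WT and 12.4 CPM in Pac1–/– (−0.90). Of 29 other Rab6 relatives, partners and Golgi Rabs, 0 lay past 1 in either direction (7.15% of all genes did), with a median of −0.12. Rab43 was at −0.76 and the dynein adaptor gene Bicdl2 at −0.83. Of 13 other clade B serpins and genes of plasminogen activation, 1 lay above 1 and 0 below −1 (2.07% and 5.08% of all genes), with a median of −0.22. Serpinb12, the gene above 1, was at 0.715 and 1.83 CPM (1.17; 0.63 to 1.74). Plaur, the urokinase receptor gene, was at 41.5 and 28.7 CPM (−0.72), and Anxa2, a plasmin cofactor gene, at 22.1 and 14.3 CPM (−0.82).

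Neighbouring genes were also listed. No gene within 1 Mb of Mmp16 had at least 50 UMIs, and the nearest that had, Cpne3 at 1400.1 kb, was at 0.02. Within 1 Mb of Rab6b, 3 of 14 genes lay below −1, the direction of Rab6b itself, beside 5.08% of all genes. The 14 ran from −2.03 to 0.41, so none lay above 1, and they were not tested as a set. The nearest, Srprb at 2.76 kb, was at 0.11, and Trf, the transferrin gene at 18.7 kb, was at −1.29 (−1.59 to −0.99). Within 1 Mb of Serpinb2, 1 of 5 genes lay past 1 (7.15% of all genes), which was Serpinb12 at 554 kb.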

How the data were processed

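The 2 libraries of sorted lung ILC2s, 1 WT and 1 Pac1–/–, were analysed. The deposited values were raw UMI counts per gene and barcode, made by the authors with Cell Ranger (6.1.1 in the submitters' processing notes, 4.0.0 in the file header) on mm10, with no normalization and with the annotation release not given in the sources used here. Barcodes were those already called as cells. No doublet caller was run, and cells over 2 times the median UMIs were left out as an alternative.

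Counts were summed over the kept barcodes. Intervals are exact and at 95% (Poisson for CPM, conditional binomial for ratios, Clopper-Pearson for shares) and cover counting error only. Ratios between libraries are relative to the median gene. The thinning depth of 1500 UMIs was the highest candidate (500, 1000, 1500, 2000 or 3000) at which each library kept 90% of its cells. Clusters were made with the Leiden method (resolution 1, 2000 variable genes, 30 components, 15 neighbours), without the 3 genes and mitochondrial genes. ILC2-like clusters had 3 or more ILC2 markers, each in 50% of cells, and no other marker set leading. Such names may differ from the cell selection of the study. Likeness was Pearson's r of log2(CPM + 10) over clusters of at least 50 cells. The named genes are the 3 genes, Dusp2, the status genes, the 5 genes nearest in likeness, up to 4 members of each companion list with the largest ratios, and paralogs, and 2 further genes under this rule are not reported here. The 3 genes and the lists were chosen with earlier results of these data known. With 1 library per genotype no p-value was computed. The ratio and thinning steps were tested on simulated data. Annotation was GENCODE on GRCm38. Work was done in Python 3.11.15 with scikit-learn 1.9.0, pandas 2.3.3, scipy 1.17.1, numpy 2.4.6, leidenalg 0.10.2, igraph 0.11.9 and matplotlib 3.10.9.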

Additional observations from a re-analysis of the deposited data

Results flagged for a closer look

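Barcodes that failed the filter entered only the alternative that kept every deposited barcode, and all 3 genes were found in them with the same order between libraries. Mmp16 was at 63.8 CPM (124 UMIs) in the 2408 Pac1–/– barcodes and at 1.25 CPM (2 UMIs) in the 2472 WT barcodes that failed. Rab6b was at 20.6 CPM (33 UMIs) in WT and 2.06 CPM (4 UMIs) in Pac1–/–. Serpinb2 was at 19.5 CPM (38 UMIs) in Pac1–/– and 2.50 CPM (4 UMIs) in WT. For each gene the value in the library where it is higher comes from data outside the main measurement and lies above the interval of the other library.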

How the results depend on the processing

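Of 96 recomputed values, 81 stayed inside the interval of the value reported and 15 left it, and no ratio whose interval lay on 1 side of 0 changed sign. The Rab6b ratio with Actn2, whose interval spans 0, went to 0.0039 without the deepest cells. Without cells over 2 times the median UMIs, the Serpinb2 ratio between libraries was 3.03, the Mmp16 ratio between cells with and without Il5 was −0.50 and with Il13 −0.36, and the Serpinb2 ratio with Il13 was 1.21 and with Actn2 −1.50. At equal depth the Mmp16 ratio with Il5 was −0.34 and with Il13 −0.57, and the Rab6b ratio with Il5 was −0.078 and with Actn2 −0.27, and the cause was not tested. Thinned to 1000 UMIs the shares were 5.67% for Mmp16, 1.93% for Rab6b and 1.09% for Serpinb2, and unthinned 24.1%, 11.1% and 5.73%, as fewer or more UMIs per cell give by construction. Serpinb2 with Actn2 has no value at equal depth, since the 122 cells with Actn2 held 0 of its 114 UMIs. Leaving out the 1 WT and 7 Pac1–/– cells with 10 or more Serpinb2 UMIs, chosen after seeing the data, gave a Serpinb2 ratio between libraries of 2.48 and ratios of 1.06 with Il5, 0.58 with Il13 and −0.44 with Actn2. The filters applied to the measured share against a common level were also chosen after seeing the data, and all 12 values stayed inside the interval. No paired analysis was possible because each genotype had 1 library. Below about 3 UMIs a level cannot be told from 0, which limits Rab6b in single Pac1–/– clusters and Mmp16 and Serpinb2 in single WT clusters.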
